A study of Caenorhabditis elegans with 2 samples.

Results

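The genes described here are xol-1 and 9 genes of X chromosome dosage compensation, sdc-1, sdc-2, sdc-3, dpy-21, dpy-26, dpy-27, dpy-28, dpy-30 and mix-1, taken by symbol from the annotation of the nematode Caenorhabditis elegans. They are 10 of 46890 annotated genes on the nuclear chromosomes and 10 of 19973 protein coding genes, and 3 of them, xol-1, sdc-1 and sdc-2, are X-linked. Every peak summit within 5 kb of each gene was collected from 4 deposited peak lists. The genes were taken by name and not by a threshold on measured values, although earlier results of these data were known when they were chosen.

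In C. elegans, XX animals are hermaphrodites and XO animals are males, and XX animals lower transcription from both X chromosomes to match the single X of males. The switch gene xol-1 reads the ratio of X to autosomes in the early embryo. Where it is active it sets the male fate and keeps dosage compensation off, and where it is silent the SDC proteins bring a specialised condensin complex to recruitment sites on X, from which the complex spreads along the chromosome.

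The experiment was chromatin immunoprecipitation followed by sequencing (ChIP-seq) of whole larvae of the L3 stage. The strain was OP353, which carries unc-119(tm4063) on chromosome III and the integrated transgene wgIs353, the source of eGFP-tagged nhr-77, a nuclear hormone receptor. Both biological replicates belong to 1 group, animals of both sexes were mixed, and the share of each sex, which bears on genes that act differently in XX and XO animals, is not stated. The antibody label reads nhr-77, which does not settle whether the tag or the receptor was the antigen, and the series holds no second strain, stage or untagged group, so no test between groups exists and the values below are a description. In whole animals, binding in more cells and stronger binding per cell cannot be told apart.

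There were 3 relaxed lists of 30000 entries, peaks and background together, from replicate 1, from replicate 2 and from the pooled replicates. The fourth list keeps entries by how reproducibly they rank, measured as the irreproducible discovery rate (IDR). It held 590 entries, and all of them were the strongest 590 of the pooled list. Entries were ranked within a list by the authors' signal value, the enrichment of ChIP over control as their caller wrote it, with rank 1 the highest. The signal had a median of 8.27 and a maximum of 427 in the pooled list, and a median of 5.07 in replicate 1 and 4.76 in replicate 2, so signals are read only within a list. The depth of the libraries is unknown. Weak entries seldom recurred at the same place: of pooled entries outside the IDR list 12.4% had a summit within 100 bp in both replicate lists, against 88.8% of the IDR entries.

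The strongest entries near these genes lay at xol-1, dpy-28, mix-1, sdc-2 and sdc-1, which are the 5 genes with an IDR summit within 5 kb. The sequence around each of these 5 summits is shown here because the values and motif matches below refer to it. Each runs 5′ to 3′ on the plus strand from 100 bp before to 100 bp after the summit, from the RefSeq sequence of WBcel235 (ce11), and the dpy-28 stretch is shortened at its right end, where the 5′ UTR of tasp-1 begins. Capitals mark matches on either strand to the X recruitment motif core CGCAGGG, the GA repeat GAGAGAG and the tRNA promoter motif core GGTTCGA, each described below. The stretches are chrX:8036338-8036538 for xol-1, chrX:16271298-16271498 for sdc-1, chrX:11522197-11522397 for sdc-2, chrII:10840122-10840322 for mix-1 and chrIII:10759146-10759306 for dpy-28.
xol-1: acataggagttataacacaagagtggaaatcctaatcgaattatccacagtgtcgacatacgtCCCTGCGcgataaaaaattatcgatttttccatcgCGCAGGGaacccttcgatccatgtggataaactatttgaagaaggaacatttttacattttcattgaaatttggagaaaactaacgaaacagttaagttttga
sdc-1: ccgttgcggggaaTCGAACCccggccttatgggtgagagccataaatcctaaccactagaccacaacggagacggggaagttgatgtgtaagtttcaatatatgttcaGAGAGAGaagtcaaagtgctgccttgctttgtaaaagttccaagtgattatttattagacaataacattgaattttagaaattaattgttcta
sdc-2: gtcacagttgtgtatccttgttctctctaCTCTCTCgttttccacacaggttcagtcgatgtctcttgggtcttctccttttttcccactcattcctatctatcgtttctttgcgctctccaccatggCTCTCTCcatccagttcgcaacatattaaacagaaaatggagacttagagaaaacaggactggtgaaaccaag
mix-1: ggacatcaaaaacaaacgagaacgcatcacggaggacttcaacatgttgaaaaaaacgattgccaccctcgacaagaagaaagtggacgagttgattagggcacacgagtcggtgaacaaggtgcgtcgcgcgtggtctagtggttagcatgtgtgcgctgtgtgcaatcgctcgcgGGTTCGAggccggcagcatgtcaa
dpy-28: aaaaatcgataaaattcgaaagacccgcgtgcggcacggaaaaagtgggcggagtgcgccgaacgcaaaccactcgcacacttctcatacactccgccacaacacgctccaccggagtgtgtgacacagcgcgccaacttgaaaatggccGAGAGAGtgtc

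The switch gene xol-1 (WBGene00006962, chromosome X, 8041313 to 8044409, plus strand) had the strongest entry of the 10 genes, but not at its promoter. The peak ran from 8036237 to 8036660, in intergenic sequence 4875 bp upstream of the gene, just inside the 5 kb limit. Its signal was 258 in the pool (rank 10), 142 in replicate 1 (rank 5) and 107 in replicate 2 (rank 21). Both replicates thus placed it among their strongest entries, with summits 35 and 0 bp from the pooled one. The 5′ end of xol-1 was the nearest of any protein coding gene. Other annotated genes were closer: C18A11.13, a noncoding RNA gene, starts 236 bp from the summit, and C18A11.t2, a tRNA gene on the minus strand (8036685 to 8036757), begins 319 bp away and ends before reaching it. No pooled or replicate summit fell in a promoter window of xol-1, which here reaches from 1000 bp upstream to 500 bp downstream of any annotated 5′ end. Downstream of xol-1, 3 weaker pooled entries had signals of 8.34 to 28.2. The strongest of them, in intergenic sequence at 8048866, ranked 621 in the pool, just below the last IDR entry. It ranked 5529 in replicate 1 and 395 in replicate 2, so the replicates placed it far apart.

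The 3 sdc genes encode the factors that select X for the complex. sdc-2 (WBGene00004746, X, 11522707 to 11533450, plus strand), whose product acts only in XX animals and leads recruitment, was the only one of the 10 genes with an IDR summit in its promoter window. The peak ran from 11522125 to 11522468 with its summit 410 bp upstream of the 5′ end, and it lay in the promoter window of no other gene. The signal was 45.1 in the pool (rank 207), 30.8 in replicate 1 (rank 111) and 19.8 in replicate 2 (rank 343). The summit of replicate 1 was at the same base and that of replicate 2 lay 97 bp to the left. Of the 9089 protein coding genes with a pooled summit in a promoter window, 185 (2.04%) had a better rank there than sdc-2. Another 11 pooled entries around sdc-2, 4 of them in the gene body, had signals of 5.90 to 17.6.

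At sdc-1 (WBGene00004745, X, 16275763 to 16282534, plus strand), which encodes a zinc finger protein, the IDR peak from 16271226 to 16271569 lay 4365 bp upstream. Its signal was 33.0 in the pool (rank 437), 20.1 in replicate 1 (rank 340) and 10.8 in replicate 2 (rank 1762), so replicate 2 ranked it lower than any other of the 5 IDR peaks. The summit was 31 bp upstream of the tRNA gene F52E10.t5 (16271296 to 16271367, minus strand). It also lay 115 bp past the start of F52E10.7, a noncoding RNA gene, and in an intron of W10G6.5. The replicate 1 summit lay 44 bp to the left, inside F52E10.t5, and the replicate 2 summit 79 bp to the right. The nearest protein coding 5′ end was that of ifa-3, 1329 bp away, not that of sdc-1. In the sdc-1 promoter the pooled summit lay 713 bp upstream with a signal of 9.54 (rank 10860), close to the median of all protein coding promoters with a summit, and 485 bp upstream of F52E10.8. The replicates had promoter summits at other places or low ranks, at 132 bp downstream in replicate 1 (rank 13154) and 737 bp upstream in replicate 2 (rank 17409).

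sdc-3 (WBGene00004747, chromosome V, 15039148 to 15048207, minus strand), which encodes another zinc finger protein and works with sdc-2, had no IDR summit nearby. Its 4 pooled entries had signals of 6.37 to 9.10, near the list median of 8.27. The best ranked 12117 in the pool and lay in coding sequence, while the best in replicate 1 ranked 4649 and the best in replicate 2 ranked 3892. A pooled promoter summit lay 232 bp upstream (signal 8.57, rank 13855), and neither replicate had a summit in the promoter window.

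**Figure D1:**
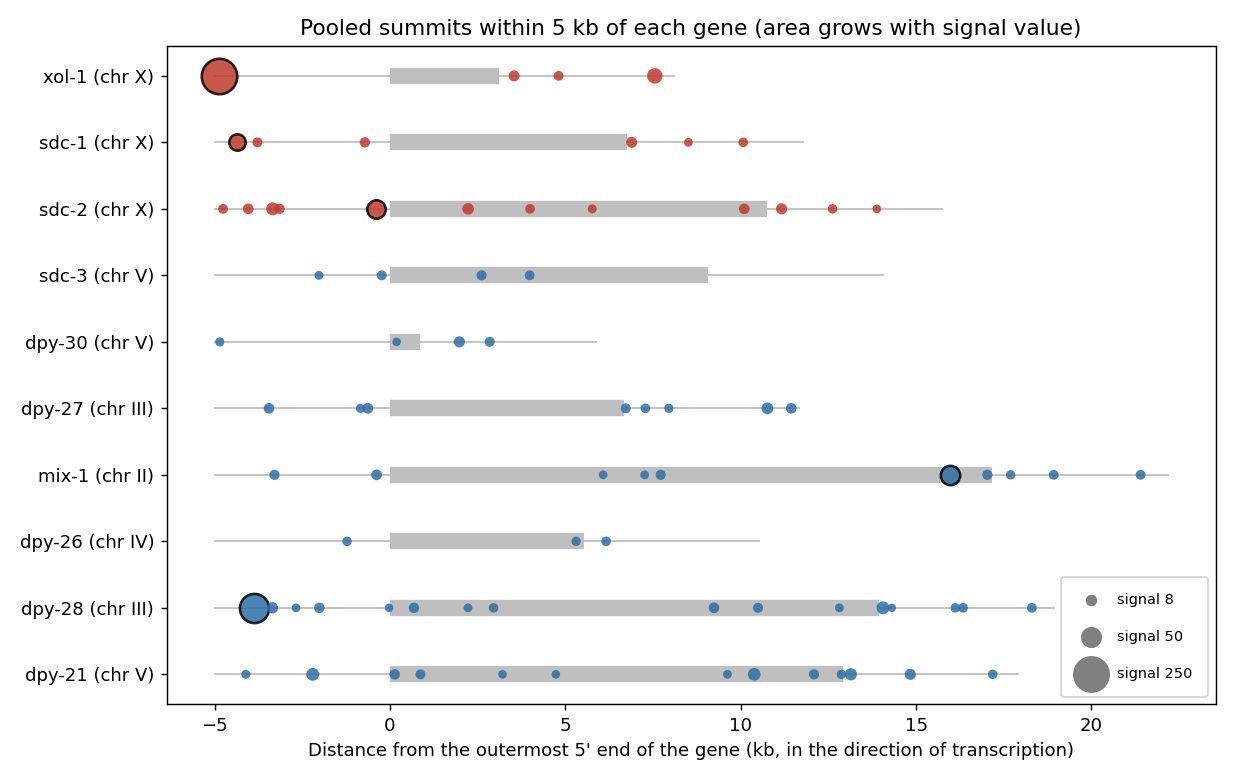
Pooled summits (circles) within 5 kb of each gene, by distance from the outermost 5′ end in kb in the direction of transcription. Grey bars are gene spans, circle area grows with the signal value, red is X-linked and blue autosomal, and a black outline marks the 5 IDR entries. Only the sdc-2 outline sits at a 5′ end; those of xol-1, sdc-1 and dpy-28 are 3885 to 4875 bp upstream and that of mix-1 is in the gene.

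The condensin subunits differed widely. Condensin is a ring of a pair of SMC proteins closed by a kleisin and bound by HEAT repeat subunits. dpy-27 (WBGene00001086, chromosome III, 3813018 to 3819679, minus strand) encodes the SMC4 type subunit found only in the dosage compensation complex. It had 8 pooled entries, none in the IDR list. The best, in coding sequence of the neighbour toh-1, had a signal of 13.8 in the pool (rank 3952). Replicate 1 ranked it 1934, with its summit 99 bp away, in an intron of toh-1. Replicate 2 had no summit within 100 bp of it, and the best there, at rank 4302, was another entry. The promoter window of dpy-27 held 2 pooled summits, 628 and 838 bp upstream (signals 10.8 and 6.92, ranks 7830 and 21210). Both were nearer to the 5′ end of R13G10.5, at 34 and 244 bp upstream of it, and no promoter summit of dpy-27 was matched in both replicates.

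mix-1 (WBGene00003367, chromosome II, 10824246 to 10841424, plus strand) encodes the SMC2 type subunit that all condensins of the worm share, and it held the single IDR summit inside a gene body. The peak ran from 10840050 to 10840393 with its summit at 10840222, in coding sequence of exon 13 (10840117 to 10840242) of 15 and 15976 bp downstream of the 5′ end. The signal was 51.5 in the pool (rank 138), 27.3 in replicate 1 (rank 148) and 33.8 in replicate 2 (rank 97), among the strongest entries of every list. The summit was 95 bp upstream of the snoRNA gene M106.6 (10840317 to 10840391, plus strand), which lies within mix-1. That of replicate 1 lay 90 bp to the right, in an intron and 5 bp upstream of M106.6. That of replicate 2 lay 5 bp to the left, in coding sequence. At the mix-1 promoter the pooled summit had a signal of 10.6 (rank 8206), near the middle of all protein coding promoters with a summit, and lay 381 bp upstream and in coding sequence of the neighbour R06F6.12. Summits in that window ranked 26929 in replicate 1 and 21755 and 22301 in replicate 2, in the weaker part of both lists. Only the one at rank 22301, 14 bp away, lay within 100 bp of the pooled summit.

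dpy-28 (WBGene00001087, chromosome III, 10763131 to 10777076, plus strand) encodes a HEAT repeat subunit shared with condensin I. Its IDR peak, from 10759131 to 10759363, had a signal of 154 in the pool (rank 21), 80.1 in replicate 1 (rank 20) and 71.0 in replicate 2 (rank 30). It was thus close to the top of all 3 lists, with replicate summits 2 and 0 bp from the pooled one. The summit was 3885 bp upstream of dpy-28 but only 61 bp upstream of tasp-1, a gene that lies between the peak and dpy-28, and 724 bp upstream of K01G5.10. At the dpy-28 promoter itself the pooled summit, 23 bp upstream, had a signal of 5.83 (rank 27783), and 94.8% of protein coding genes with a promoter summit ranked better. Replicate 1 had no summit there and replicate 2 had 1 at rank 28840. dpy-28 had the most pooled entries of the 10 genes, 16, of which 6 lay in its body.

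dpy-26 (WBGene00001085, chromosome IV, 12445801 to 12451335, minus strand) encodes the kleisin, also shared with condensin I, and had the fewest pooled entries and the lowest best pooled rank of the 10 genes. Its 3 pooled signals were 7.25, 7.68 and 8.14, all below the list median, and none of the lists had a summit in its promoter window. The best rank was 15459 in the pool. The replicates did not place it last: it had 6 entries in replicate 1, the best at rank 4878, and 4 in replicate 2, the best at rank 5691.

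The remaining members act with the complex. dpy-30 (WBGene00001088, chromosome V, 12191519 to 12192385, plus strand) encodes a small protein shared with the COMPASS complexes that methylate histone H3. It had 4 pooled entries with signals of 5.77 to 11.7, the best at rank 6277, in an exon of rnp-1. That entry ranked 8474 in replicate 1, where it was also the best, and 14520 in replicate 2, where the best was another entry at rank 13496. Its promoter summit, 192 bp downstream of the 5′ end and 562 bp upstream of rnp-1, had the lowest signal of the promoter summits of these genes (5.77, rank 28227). Replicate 1 had no summit in that window, and replicate 2 had 2, at the higher ranks of 13496 and 15287. dpy-21 (WBGene00001080, chromosome V, 17936282 to 17949193, minus strand) encodes a demethylase of lysine 20 of histone H4. It had 13 pooled entries with signals of 5.89 to 17.2, and none was in the IDR list. The best, 2200 bp upstream of dpy-21 and 556 bp upstream of Y59A8B.24, ranked 2079 in the pool and 1103 in replicate 1. In replicate 2 that entry ranked 10019, and the best there was another, at rank 4230, in an intron of dpy-21. Its promoter summit lay 29 bp upstream of a 5′ end (signal 10.1, rank 9395), with a replicate 2 summit at rank 4573 in the window and none in replicate 1.

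By the best pooled rank within 5 kb, the order was xol-1, dpy-28, mix-1, sdc-2, sdc-1, dpy-21, dpy-27, dpy-30, sdc-3 and dpy-26. The replicate ranks of neighbours in this order overlapped for xol-1 and dpy-28, mix-1 and sdc-2, sdc-2 and sdc-1, sdc-1 and dpy-21, and dpy-21 and dpy-27. They did not overlap between dpy-28 (20 and 30) and mix-1 (148 and 97), nor between dpy-27 (1934 and 4302) and dpy-30 (8474 and 13496). Nor did they overlap between dpy-30 and sdc-3, whose order was the reverse in both replicates, or between sdc-3 and dpy-26. For dpy-21, dpy-27, dpy-30, sdc-3 and dpy-26 the best entries of the replicates lay at different places, so their ranks are not those of a single entry. The order of the 5 genes without an IDR summit was not stable. Both replicates ranked the best entries of sdc-3 (4649 and 3892) and dpy-26 (4878 and 5691) above that of dpy-30, and replicate 2 ranked sdc-3 above dpy-21 (4230) and dpy-27.

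**Figure D2:**
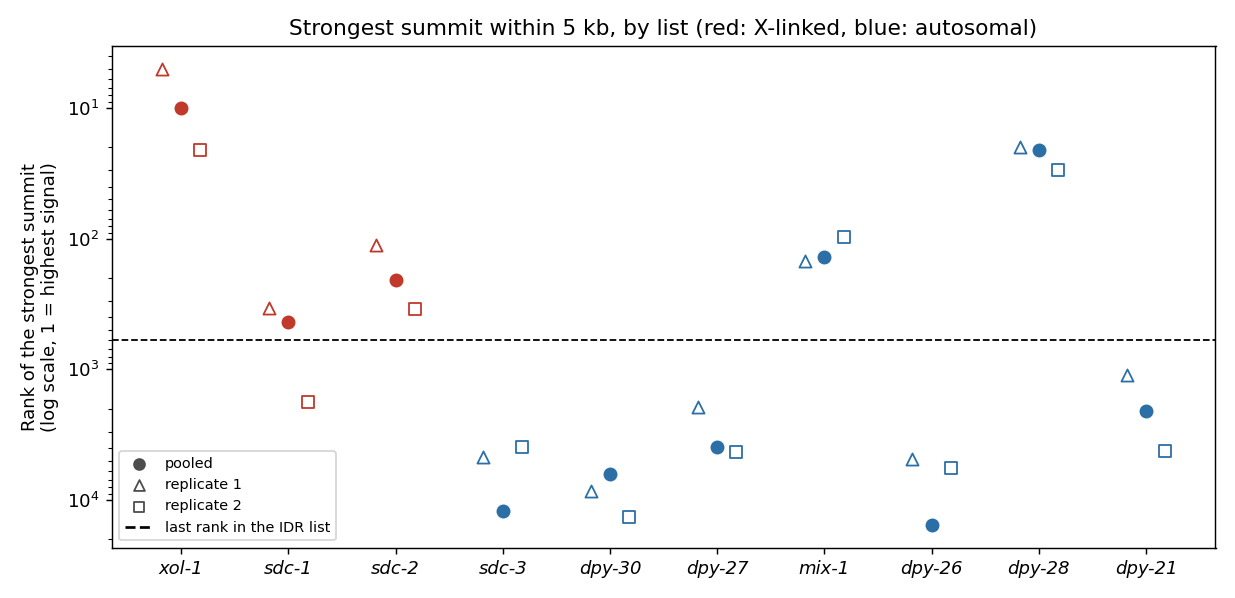
Rank of the strongest summit within 5 kb of each gene (log axis, 1 at the top) in the pooled list and in each replicate; red is X-linked, blue autosomal, and the dashed line is rank 590, the last of the IDR list. The 3 X-linked genes with dpy-28 and mix-1 lie above the line in the pool, and the other 5 genes rank 2079 to 15459.

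Within 5 kb, 5 of the 10 genes had an IDR summit, where 8.22% of all protein coding genes had one. For the X-linked members the count was 3 of 3, beside 8.64% of protein coding genes on X, and for the autosomal members 2 of 7, beside 8.15%. These genes are long, with a median span of 7916 bp against 2027 bp for all protein coding genes, so more sequence was searched per gene. Only the IDR summit of mix-1 lay inside the span of its gene, and whether length bears on the count was not tested. Among protein coding genes that span at least 5000 bp the share was 10.4%, and 4 of the 8 members of that length had an IDR summit within 5 kb. The distance from the gene to the nearest IDR summit was 410 bp for sdc-2, 4365 bp for sdc-1 and 4875 bp for xol-1. The median over X-linked protein coding genes was 57378 bp. The 7 autosomal members ranged from 0 bp for mix-1 to 970416 bp for dpy-21, with a median of 36849 bp against 72127 bp for autosomal protein coding genes. The gene next outside the limit was dpy-27, at 11453 bp.

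The median best pooled rank was 207 for the 3 X-linked members and 3952 for the 7 autosomal ones, and the order was the same in replicate 1 (111 and 1934) and in replicate 2 (343 and 4230). It depended on distance. Within 2 kb the medians were 6797 and 6277, with the X-linked genes lower placed. The xol-1 and sdc-1 peaks lie farther out than 2 kb, as does the autosomal dpy-28 peak, and both medians moved to weaker ranks. With so few genes no test was made.

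At promoters the members did not stand out by rank. A pooled summit lay in the promoter window of 8 of the 10, all but xol-1 and dpy-26, beside 45.5% of protein coding genes, but 4 genes had a promoter summit in replicate 1 and 7 in replicate 2, each beside 45.8%. With the 10000 strongest pooled entries the count was 4, beside 21.5%. Only sdc-2 had an IDR summit there, beside 2.5% of protein coding genes. The median best promoter rank was 10127.5 over the 8 members, beside 10849 over all 9089 protein coding genes with a promoter summit. sdc-2 stood at 2.04% of that order, dpy-27, mix-1 and dpy-21 between 40.1% and 45.4%, sdc-1 near the middle with 4548 genes ranked better, sdc-3 at 59.6%, and dpy-28 and dpy-30 near its end at 94.8% and 96.0% in the pool.

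**Figure D3:**
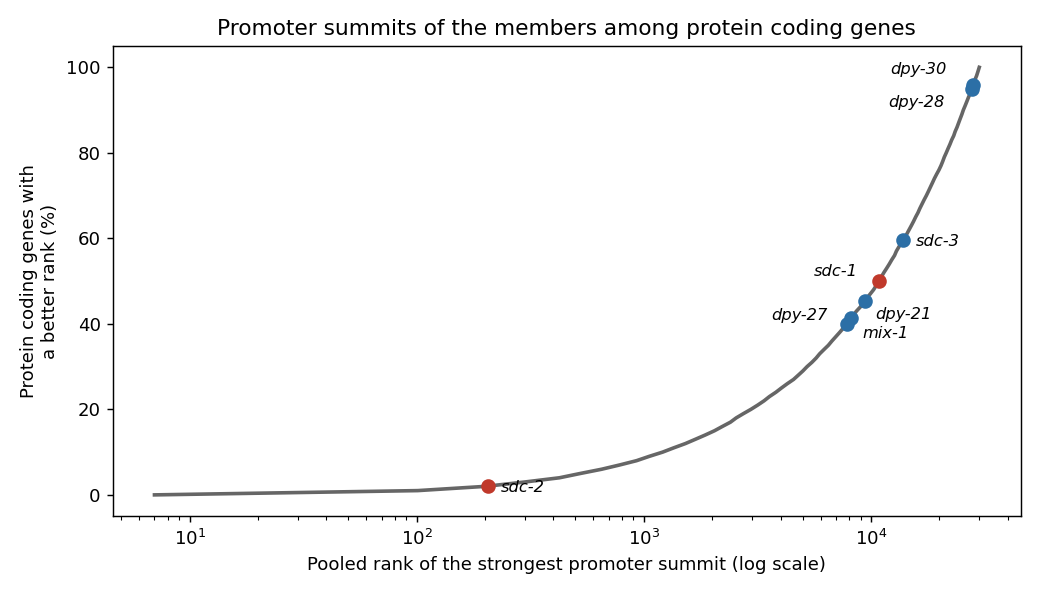
Percent of the 9089 protein coding genes with a pooled promoter summit that rank better, against the pooled rank of the best promoter summit (log axis); the grey line is all these genes, and points are the 8 members with such a summit, red X-linked and blue autosomal. sdc-2 lies at 2.04%, and the others from 40.1% to 96.0%.

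All 10 genes had at least 1 pooled entry within 5 kb, as did 90.1% of protein coding genes. There were 80 such entries, 9 in promoter windows, 25 in gene bodies and 46 in flanks. Per length this was 4.28 per 10 kb of searched sequence (4.35 around the X-linked and 4.26 around the autosomal members), beside 3.06 around all protein coding genes. It was 3.32 in replicate 1 and 4.07 in replicate 2, and from gene to gene it ran from 1.93 at dpy-26 to 6.68 at dpy-28 in the pool. Of the 80 entries, 18 had a summit within 100 bp in both replicates (22.5%, exact 95% interval 13.9 to 33.2%), 41 in 1 replicate and 21 in neither. Over all 30000 pooled entries the share with a summit in both was 13.9%. All 5 IDR entries were matched in both, beside 88.8% of all IDR entries, a list that was kept for reproducible ranks. Of the other 75, 13 were (17.3%, 9.57 to 27.8%), beside the 12.4% over the genome. Most of the 80 entries were therefore not found at the same place in both replicates, as was true of most of the pooled list.

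The xol-1 peak held a pair of matches to CGCAGGG, the core of the longer motif known from the recruitment sites of the dosage compensation complex on X. Its copies lay on opposite strands, starting 37 bp and 2 bp to the left of the summit and thus 35 bp apart, and are the capitals in the sequence printed above. Motifs were searched on both strands in the 201 bp centred on each summit. A match to CGCAGGG was present in 0.56% of all 30000 pooled windows, and 7 of those windows held more than 1 match. In the IDR list it was present in 19 of 115 windows on X (16.5%, exact 95% interval 10.3 to 24.6%) and in 9 of 475 on autosomes (1.89%). Of the 25 strongest IDR entries, 17 were on X and 12 of these held it (70.6%, 44.0 to 89.7%), 4 of them more than once, and none of the 8 on autosomes did. The xol-1 peak is itself counted among these 17, 12 and 4, so these shares are not a background apart from it. Around the 10 genes, the other match among the 80 windows was near C35C5.9, downstream of sdc-2, at a pooled entry of rank 27279. None was in the windows of the sdc-1, sdc-2, mix-1 and dpy-28 IDR peaks.

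The other IDR peaks held other motifs. GAGAGAG, present in 4.90% of pooled windows and in 7 of the 80, matched at sdc-1, at dpy-28 and, with 2 matches on the minus strand, at sdc-2; its share was 17.4% of IDR windows on X and 14.7% on autosomes. GGTTCGA, the core of the internal B box of tRNA gene promoters and a motif added after the data were seen, was present in 6 of the 80 windows, 2.12% of pooled windows, 11.3% of IDR windows on X and 3.58% on autosomes. It matched at sdc-1, inside the tRNA gene F52E10.t5, and at mix-1, 77 bp to the right of the summit. AGGTCA, the half-site that many nuclear receptors bind, was in 4.97% of pooled windows, 7.83% of IDR windows on X and 4.84% on autosomes. Its 1 match among the 80 windows was at the dpy-28 IDR peak, 69 bp to the right of the summit and beyond the printed stretch. Matches to different motifs can share end bases but did not in the 5 IDR windows. A match is a description of the letters and not a mapped binding site.

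**Figure D4:**
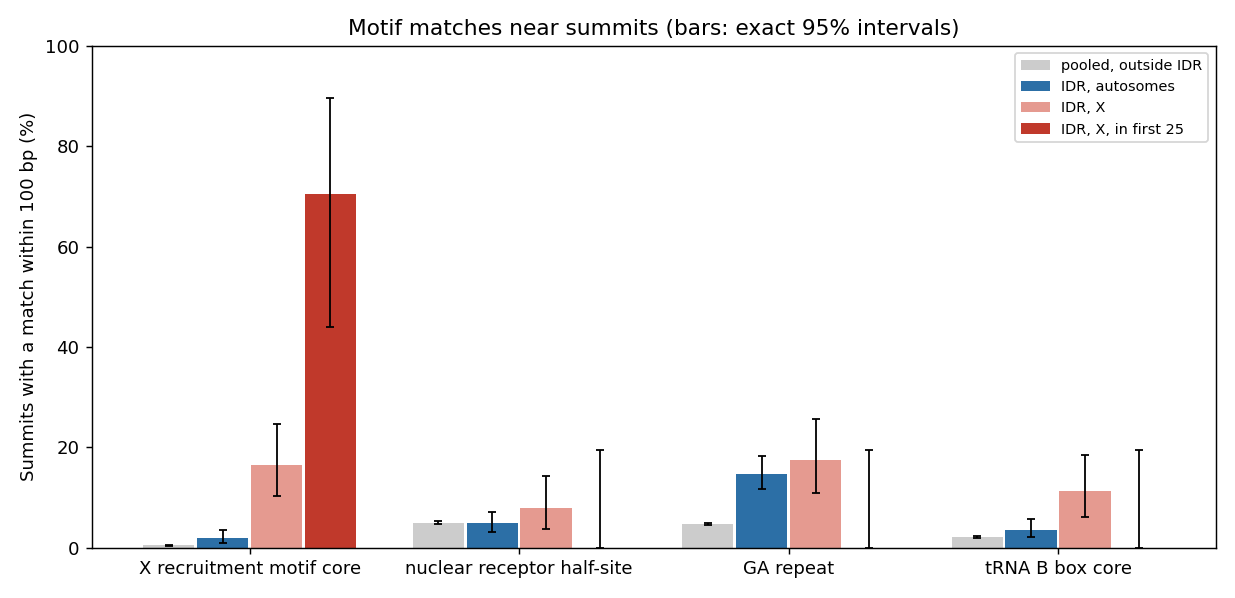
Share of summits (percent) with at least 1 match within 100 bp, for the X recruitment motif core CGCAGGG, the nuclear receptor half-site AGGTCA, the GA repeat GAGAGAG and the tRNA B box core GGTTCGA, in 4 groups of pooled entries; bars on the columns are exact 95% intervals, which cover counting error only. The highest column is CGCAGGG in the 17 X-linked entries among the 25 strongest IDR entries, at 70.6%, where the other 3 motifs had no match, which allows a share of up to 19.5%. These 17 include the xol-1 peak.

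Related genes outside the 10 were read from lists by function. Their counts are read beside the 45.5% of protein coding genes with a pooled and the 2.5% with an IDR summit in a promoter window, and lists this short were not tested against those shares. Of 5 other condensin subunit genes, 3 had a pooled promoter summit and 1 an IDR summit there. That was kle-2, the kleisin gene of condensin II (signal 37.6, pooled rank 311, 661 bp upstream, ranks 264 and 3053 in replicates 1 and 2), followed by hcp-6, a HEAT repeat subunit gene of condensin II (21.5, rank 1194). Of the 6 other COMPASS subunit genes, 4 had a pooled and 2 an IDR promoter summit. These were set-16, which encodes a histone H3 methyltransferase (82.5, pooled rank 46, 152 bp upstream, replicate ranks 75 and 50), and ash-2, a core subunit gene (45.8, pooled rank 202, 104 bp upstream, replicate ranks 258 and 174). The dpy-30 promoter, for a subunit of the same complexes, had pooled rank 28227.

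Upstream of xol-1 in the pathway, 5 genes of the X and autosomal signal elements were matched and 3 had a pooled promoter summit, none of them in the IDR list; the strongest were sea-2 (10.9, rank 7684) and ceh-39 (8.89, rank 12756). Of 7 sex determination genes, 5 had a pooled promoter summit and none an IDR one. The strongest were fem-2 (23.6, rank 964) and tra-2 (7.80, rank 16876). Of the 7, tra-2 alone had an IDR summit within 5 kb, at rank 166, where 8.22% of all protein coding genes had one within that distance. Both genes of the methyltransferases that set methylation of lysine 20 of histone H4, the residue that the dpy-21 product acts on, had a pooled promoter summit outside the IDR list, set-4 at 25.4 (rank 812) and set-1 at 8.36 (rank 14646).

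Over the pooled and both replicate lists, the genes whose best promoter ranks were most like those of sdc-2 were sec-24.1 on chromosome IV (ranks 174, 91 and 313), F25D1.5 on V (197, 138 and 423) and kel-3 on III (225, 107 and 566). Likeness was the sum of absolute log10 rank differences, 0.201, 0.207 and 0.270, over 4854 protein coding genes with a promoter summit in all 3 lists.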

How the data were processed

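ChIP-seq peak lists of 2 biological replicates of 1 group were used. Per the inventory deposited beside the lists, the authors called peaks with background at a relaxed setting in each replicate and in the pool, against a control, and derived the IDR list from these. No aligner, peak caller, version or IDR cut-off is given in the sources used here. The deposited signal value of each entry is the authors' enrichment over control and was used only to rank entries within a list. The deposited −log10 q-value was tied at 2.98 for all 590 IDR entries and was not used for ranking. Lists on ce10 were not used. Read depth is unknown, and nothing in the labels says whether the replicates came from separate cultures.

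Genes and transcripts came from Ensembl release 115 (WBcel235, the sequence of ce11) and sequence from RefSeq. Coordinates are 1-based. A summit was placed in a promoter window (1000 bp upstream to 500 bp downstream of any 5′ end), otherwise the gene span, otherwise the flank of 5000 bp. Summits within 100 bp matched. Python 3.11.15, pandas 2.3.3, numpy 2.4.6, scipy 1.17.1 and matplotlib 3.10.9 were used. Placing and matching were checked on made-up genes and summits. Intervals of shares are exact (Clopper-Pearson, 95%) and cover counting error only.

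The genes, the related lists and the motifs were chosen with earlier results of these data known, and GGTTCGA after its surroundings were seen. All 10 members are named, up to 2 genes with the highest promoter signal of each related list, genes whose promoter windows share a member's promoter or IDR summit, and the 3 genes most like sdc-2; toh-1, ifa-3, W10G6.5, Y59A8B.24 and C35C5.9 are named as neighbours after their values were seen. The symbol sex-2 was not matched in the annotation used. Alternatives were each replicate alone, other distances, windows, list lengths and matching rules.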

Additional observations from a re-analysis of the deposited data

How the results depend on the processing

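With each replicate's list in place of the pooled one, members with a promoter summit numbered 4 to 7 (8 in the pool), members within 5 kb of one of its 590 strongest summits 4 to 5 (5, with the IDR list), summits within 5 kb 62 to 76 (80), summits per 10 kb 3.32 to 4.07 (4.28), and the median rank of X-linked minus autosomal members -3887 to -1823 (-3745). Within 2 kb, 2 members had an IDR summit, 53 summits were found, and the rank difference turned to 520. In promoter windows alone that difference was -6091.5, over 2 X-linked and 6 autosomal members. With the 10000 strongest pooled entries, 4 members had a promoter summit, and 28 summits (1.499 per 10 kb) lay within 5 kb. Matching within 50 bp gave 7 summits found in both replicates, within 200 bp 23 and by any overlap of the called intervals 26, instead of 18 of 80. Some settings searched fewer entries or less sequence, and the cause of these shifts was not tested. The IDR count was 5 at 10 kb and with the 2000 strongest entries, and 4 with the stronger part of the IDR list. The promoter count was 6 with windows of 500 bp on either side, 9 with 2000 bp upstream and 8 with the outermost 5′ end. Apart from the promoter counts in each replicate and in the 10000 strongest entries, no share of all protein coding genes was computed at these settings. The other counts of members are therefore not read against a background. No paired analysis was possible because there is only 1 group. Unknown depth and 1 group without an untagged control limit every value to a description.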
